A study of Mus musculus with 10 samples.

Results

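The cytosolic ribosomal protein genes of mouse bone marrow progenitors are described here, taken as the gene names of the deposited table that begin with Rpl, Rps or Rplp and a number, without the Rps6k kinases. The rule found 87 of 12791 genes. Of these, 46 were core members of the large subunit (Rpl, with Rplp0, Rplp1 and Rplp2), 31 were core members of the small subunit (Rps), 6 had paralog names that end in l or l1, 3 had pseudogene names that end in -ps and a number, and 1, Rps19bp1, names a protein that binds a ribosomal protein. Rps4y2 counts among the core Rps names by its spelling, but RefSeq lists it as Rps4l, a transcribed pseudogene. RefSeq lists Rpl34-ps1 as protein coding, although its name is that of a pseudogene.

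Bulk RNA sequencing was run on hematopoietic progenitor cells, sorted from C57BL/6 bone marrow as Lin- cells with c-Kit and without Sca-1. The labels describe 10 libraries, which are 3 KDR-positive and 4 KDR-negative libraries (titled KDR- and read as negative here) of mice with a GL261 tumor, a mouse glioma line, at week 4, and 3 libraries of naive mice without a tumor. The design text says that tumors were implanted in mice with GFP knocked into Kdr, the gene of a receptor for vascular endothelial growth factor, and that GFP-positive cells were sorted, with RNA from about 20000 cells. No label says whether the naive mice carried the reporter. Nor is it stated that each library had its own mouse, and the deposited p-values then measure only the spread between libraries, which may be technical.

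For each of 2 comparisons the table lists log2 fold change, mean log2 CPM (CPM are counts scaled to a common library size), p and adjusted p, with no values of single libraries. Its header does not name the groups. The comparisons are called the first and the second, and the numerator group is the side on which a positive fold change is higher. Both comparisons have the same denominator group by their derived levels, so no overlap between them is given. Depth per library is unknown, and no standard deviation can stand beside a fold change. A gene is called higher or lower where the authors' adjusted p is under 0.05.

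Ribosomal proteins clothe the ribosomal RNA of the small subunit, which decodes the message, and of the large subunit, which joins amino acids. Their messages carry a run of pyrimidines at the very 5' end, the TOP motif, through which the kinase mTOR sets their translation. Blood progenitors depend on them: in people, loss of 1 copy of several of these genes causes Diamond-Blackfan anemia, a failure of red cell production.

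In the first comparison nearly the whole family was higher in the numerator group, by close to 4-fold on the deposited scale, where the totals of the groups differ. By the authors' deposited table, 45 of 46 core Rpl genes and 29 of 31 core Rps genes were called higher and none lower, where 18.8% of all genes were called higher, 3.49% lower and 22.3% in either direction. The median log2 fold change was 2.05 over core Rpl genes and 2.01 over core Rps genes, against -0.13 over all genes. Both families were narrow, with a scaled median absolute deviation (MAD) of 0.115 log2 for Rpl and 0.176 for Rps, and 62 of the 77 core members lay within 0.25 log2 of their subunit's median. Among the 401 other genes with a mean over 8 log2 CPM the median was 2.002, the MAD 0.384, and 91.8% were called. The medians of the family and of other abundant genes thus lay close together. Against the 100 other genes nearest to each member in mean level, the median of the differences in log2 fold change was 0.064 for Rpl and 0.018 for Rps, although only 23 other genes lay over 12 log2 CPM, beside 52 members.

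The derived levels show how much of the table the family fills. All 87 genes together summed to 759737 CPM in the numerator group and 183450.4 CPM in the denominator group. These sums were 35.7% of the numerator total of 2127125 CPM and 24.2% of the denominator total of 756537 CPM. Core Rpl genes alone made up 19.8% of the numerator total and 13.2% of the denominator total, and core Rps genes 15.0% of the numerator total and 10.4% of the denominator total. The totals differed by 1.49 on the log2 scale, numerator over denominator, so the levels were not scaled to a common total. At equal totals the median log2 fold change was 0.55 for Rpl and 0.51 for Rps, 44 of 46 core Rpl genes and 29 of 31 core Rps genes were above 0, and 2 of the 81 members called higher, Rpl26 at -0.03 and Rpl7l1 at -0.49, were below 0.

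**Figure D1:**
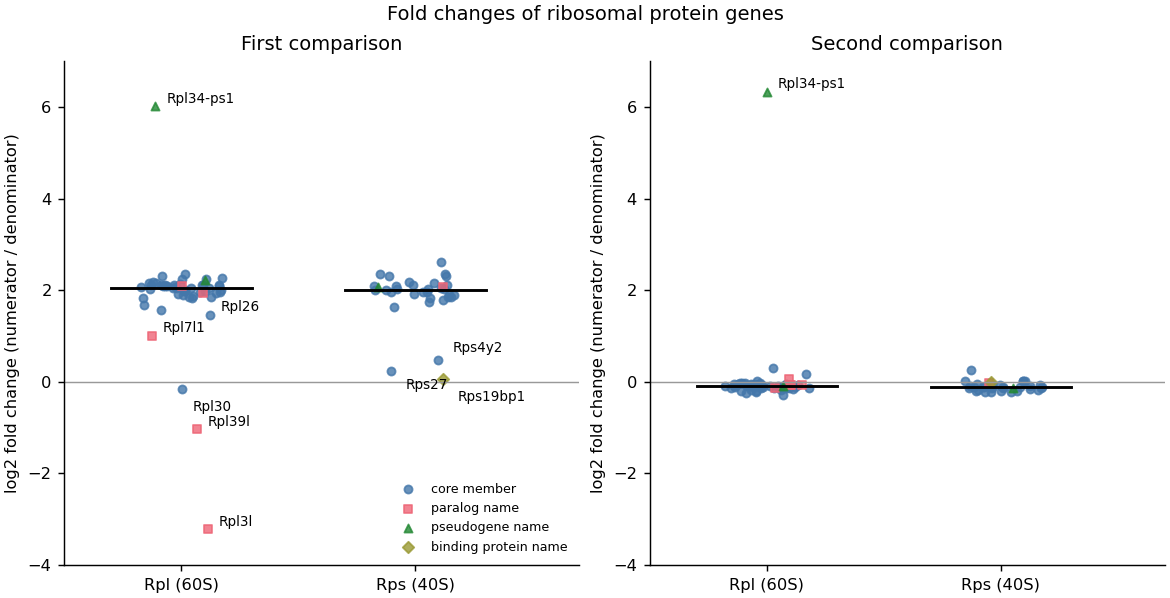
Log2 fold change of each ribosomal protein gene in the first and second deposited comparison, Rpl and Rps apart, with black lines at the medians of the core members and names beside departing genes that the text describes. In the first comparison most points lie near 2, with Rpl30, Rps27 and Rps4y2 far below, and in the second all but Rpl34-ps1 lie near 0.

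Markers of other cell types moved in the same comparison, in which 18.8% of all genes were called higher and 3.49% lower. The erythroid markers (2 of 4 higher and 1 lower) summed to 16197 CPM in the numerator group and 1145 CPM in the denominator group. The macrophage markers Emr1, C1qa, C1qb, Cd68 and Vcam1 (5 of 5 higher) summed to 2315 CPM in the numerator group and 119 CPM in the denominator group, and the megakaryocyte markers Pf4, Itga2b, Gp1bb and Ppbp (4 of 4 higher) to 1280 CPM in the numerator group and 129 CPM in the denominator group. The progenitor markers Kit, Cd34, Myb, Gata2 and Mpo (1 of 5 higher) summed to 922 CPM in the numerator group and 405 CPM in the denominator group. Of the totals of 2127125 CPM and 756537 CPM, the progenitor markers thus made up a smaller share in the numerator group. The erythroid, macrophage and megakaryocyte markers made up a larger one. B cell markers (3 of 4 lower) summed to 46.9 CPM in the numerator group and 185 CPM in the denominator group, and the 3 measured T and NK cell markers, all lower, to 3.04 CPM in the numerator group and 31.1 CPM in the denominator group. None of these sums was at 0. The part of these cells in the result was not tested, and in bulk samples fewer cells of a type and less RNA per cell cannot be told apart.

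Within the large subunit, the 3 proteins of the stalk that recruits elongation factors stayed near the family. Rplp0, the base of the stalk, stood at 9533 CPM in the numerator group and 2619 CPM in the denominator group, and the authors' deposited table gives a log2 fold change of 1.86 (adjusted p = 3.6e-09). Rplp1 stood at 20328 CPM in the numerator group and 4613 CPM in the denominator group, and Rplp2 at 7129 CPM in the numerator group and 1579 CPM in the denominator group. For Rplp1 the authors' deposited table has 2.14 and for Rplp2 2.17. The highest core Rpl fold change was that of Rpl41, the smallest ribosomal protein, at 2.34 in the authors' deposited table, with 35877 CPM in the numerator group and 7080.2 CPM in the denominator group.

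The small subunit had the broader spread. Departing members are those over 3 MAD and at least 0.5 log2 from their subunit's median. In the small subunit Rps21 had 2.36 and Rps15 2.35, both from the authors' deposited table and neither departing.

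Of the 11 genes listed here for Diamond-Blackfan anemia in people, Rpl26 was the 1 that departed from the family. All 11 of the list, among them Rps19, Rpl5, Rpl11, Rpl26 and Rpl35a, were called higher in the authors' deposited table, at log2 fold changes of 1.46 to 2.15 with a median of 2.01. In the first comparison 18.8% of all genes were called higher. Of the other genes over 8 log2 CPM 91.8% were called, with a median of 2.002. In the second comparison none of the 11 was called, at -0.22 to 0.29, where 0.109% of all genes were. Rps19, the gene most often mutated in that disease, had 2.05 with an adjusted p of 4.3e-10 by the authors' deposited table, at 12040 CPM in the numerator group and 2916 CPM in the denominator group. Rps14, whose loss from 1 chromosome marks the 5q- syndrome in people, had 2.08 in the authors' deposited table, with 5687 CPM in the numerator group and 1344 CPM in the denominator group.

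Members that departed downward in the first comparison were few. Rpl30, a large subunit protein that also binds its own transcript in yeast, stood at 85.4 CPM in the numerator group and 95.7 CPM in the denominator group. Its log2 fold change of -0.16 was the only one below 0 among core members, and the authors' deposited table gives it an adjusted p of 0.851. Rps27, a zinc finger protein of the small subunit, stood at 20.2 CPM in the numerator group and 17.2 CPM in the denominator group, and the authors' deposited table gives 0.23 on the log2 scale (adjusted p = 0.879). Rps4y2 stood at 41.6 CPM in the numerator group and 29.8 CPM in the denominator group, and the authors' deposited table gives 0.48 (adjusted p = 0.323). Rpl26, which binds the p53 message in human cells, was called higher at 1.46 (adjusted p = 0.0234) by the authors' deposited table, a distance of -0.58 log2 from the Rpl median, with 56.3 CPM in the numerator group and 20.4 CPM in the denominator group. Rpl22 at 1.56 and Rpl21 at 1.67, as the authors' deposited table lists them, were over 3 MAD from the median but within 0.5 log2 of it, just outside the rule.

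Set against the other genes of like mean level instead, these members parted ways. The 100 genes nearest to Rpl30 had a median log2 fold change of 0.95, from which Rpl30 differed by -1.11. Rps27 lay 0.71 above its median of -0.48, Rpl26 1.53 above its median of -0.07, and Rpl21 1.43 above its median of 0.24. Rps4y2 lay 0.59 above the median of its level. Of the departing core members only Rpl30 was thus low against both the family and genes of its level.

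**Figure D2:**
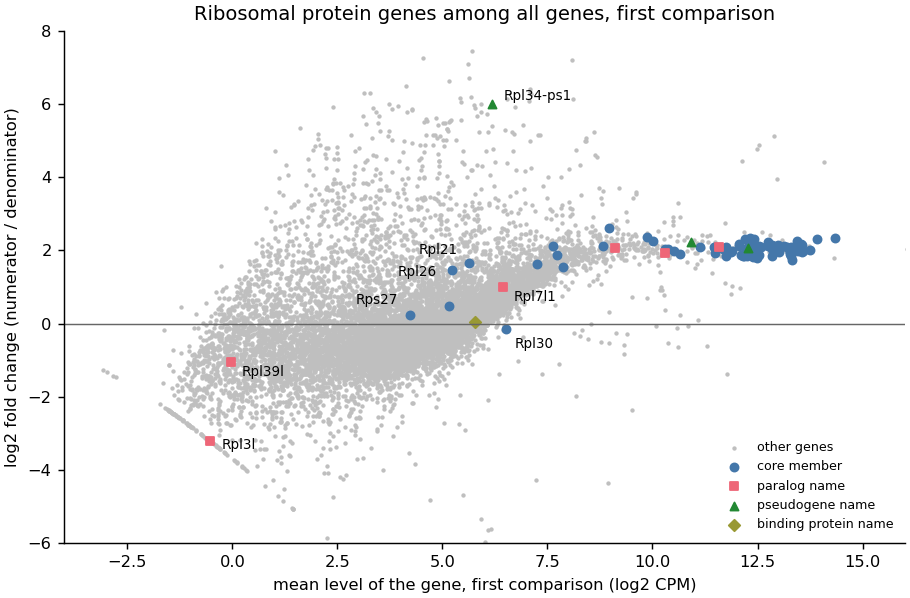
Log2 fold change in the first comparison against the mean level of each gene in log2 CPM, with ribosomal protein genes in colour over all other genes in grey; 67 genes lie outside the plotted range. The core members of high level sit on a plateau near 2 that other abundant genes share, while Rpl30, at 6.50 log2 CPM, lies below genes of its level.

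By mean level the lowest core Rpl genes were Rpl26, Rpl21 and Rpl30 and the lowest core Rps genes Rps27, Rps4y2 and Rps15a. The highest were Rpl41, Rpl39 and Rplp1 of the large subunit and Rps29, Rps18 and Rps23 of the small one, all called higher in the authors' deposited table. Per kilobase of transcript in the denominator group, the lowest 3 core Rpl genes were Rpl21 at 27.1 CPM, Rpl26 at 38.9 and Rpl7a at 83.8, and the lowest 3 core Rps genes were Rps4y2 at 37.8, Rps27 at 49.9 and Rps3 at 90.9, against a median of 2969 CPM per kilobase over core members. The highest per kilobase were Rpl41 at 16202 CPM, Rpl38 at 11412 and Rplp1 at 9245 in the large subunit, and Rps28 at 16319, Rps29 at 13687 and Rps18 at 9907 in the small one. The share of 50-base words of the transcript that also occur in a transcript of another annotated gene was 98.7% for Rps27, 76.4% for Rpl30, 71.3% for Rpl26 and 55.5% for Rpl21. Over the 60 core members with a mean of 11 log2 CPM or more the median share was 63.2%, with a range of 7.58% to 95.1%, against a median of 71.3% over the 5 core members under 7 log2 CPM. The sources used here do not say how reads with several matches were counted, and values of such members are uncertain.

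The 6 paralogs split into those that followed the family and those that did not. Rps27l, a paralog of Rps27 that p53 induces in human cells, stood at 911 CPM in the numerator group and 219 CPM in the denominator group, and the authors' deposited table gives a log2 fold change of 2.06 (adjusted p = 2.3e-10). It thus lay with the family while its parent Rps27 did not. Of the 50-base words, 98.7% for Rps27 and 22.4% for Rps27l also occur in other genes, so the values of Rps27 are uncertain. The coding sequences of both have 255 bases and are 76.1% identical. Their first 60 coding bases, from GENCODE vM21 transcripts (GRCm38), are printed to show where the genes differ, and capitals mark the 18 bases that do.
Rps27l: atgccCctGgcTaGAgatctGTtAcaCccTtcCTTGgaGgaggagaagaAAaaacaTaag
Rps27: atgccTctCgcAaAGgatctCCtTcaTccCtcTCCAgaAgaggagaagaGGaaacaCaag

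Rpl22l1, the paralog of Rpl22, stood at 2050.4 CPM in the numerator group and 534 CPM in the denominator group, and Rpl22 at 359 CPM in the numerator group and 122 CPM in the denominator group. Their log2 fold changes in the authors' deposited table were 1.94 and 1.56, both called higher. The coding sequences were 72.7% identical over 366 aligned bases, and the first 60 coding bases, printed as a more diverged pair, differ at the 34 bases in capitals.
Rpl22l1: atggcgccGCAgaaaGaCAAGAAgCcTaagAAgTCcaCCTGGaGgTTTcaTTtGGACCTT
Rpl22: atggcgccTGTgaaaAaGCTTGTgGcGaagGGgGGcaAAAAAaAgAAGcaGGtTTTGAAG

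Rpl36al had 2.10 and its parent Rpl36a 2.12 in the authors' deposited table, both called higher, with coding sequences 87.9% identical. Rpl36al stood at 5123 CPM in the numerator group and 1199 CPM in the denominator group. Rpl7l1, a nucleolar relative of Rpl7, was called higher at 1.002 by the authors' deposited table (adjusted p = 0.0063), a distance of -1.04 log2 from the Rpl median. It stood at 118 CPM in the numerator group and 58.7 CPM in the denominator group, where Rpl7 stood at 11472 CPM in the numerator group and 2660.3 CPM in the denominator group. Rpl3l, known from heart and skeletal muscle, and Rpl39l, known from testis, were near the limit of detection. Rpl3l stood at 0.130 CPM in the numerator group and 1.22 CPM in the denominator group, and Rpl39l at 0.629 CPM in the numerator group and 1.29 CPM in the denominator group. Neither was called, with adjusted p of 0.728 for Rpl3l and 1 for Rpl39l as the authors' deposited table has them, and fold changes at such levels depend on the fit.

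**Figure D3:**
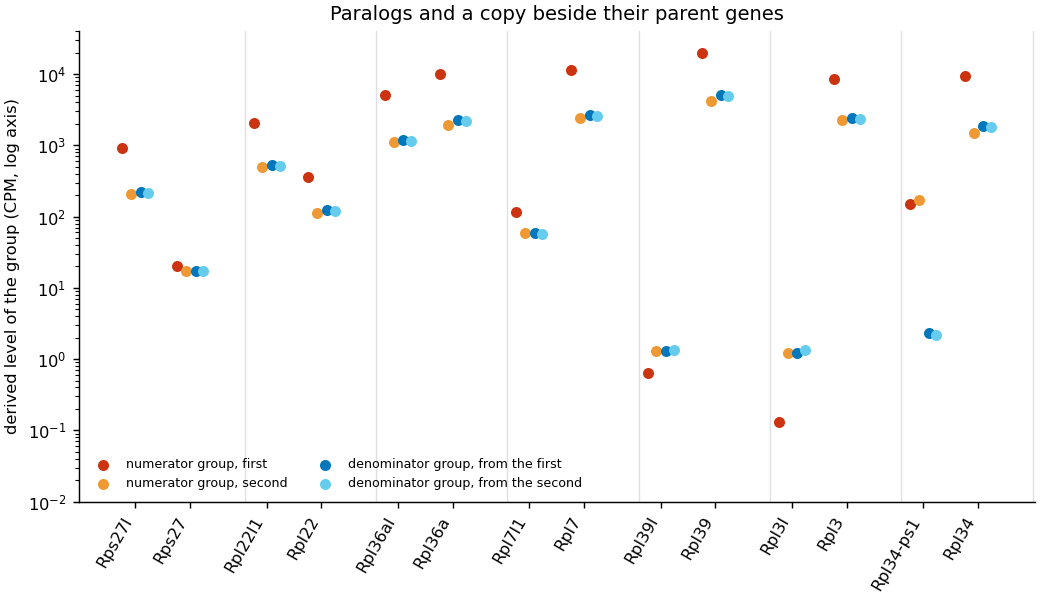
Derived level in CPM, on a log axis, of 6 paralogs and the copy Rpl34-ps1, each left of its parent gene, in the numerator groups of both comparisons and in the denominator group as derived from each. Rps27l lies above Rps27 in every group, while Rpl7l1, Rpl39l and Rpl3l lie far below their parents, and Rpl34-ps1 is near 2 CPM in the denominator group and over 100 CPM in both numerator groups.

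Of the 3 genes with pseudogene names, Rpl34-ps1 departed from the family. Rps19-ps3 at 2.07 and Rplp2-ps1 at 2.22 in the authors' deposited table lay with their parents Rps19 and Rplp2, at 2.05 and 2.17. The Rps19-ps3 transcript was 96.7% identical to the Rps19 coding sequence over 426 bases, and the values of both are uncertain where reads match both. Rpl34-ps1, 99.4% identical to Rpl34 over 354 bases and with every 50-base word (100%) found in other genes, stood at 150 CPM in the numerator group and 2.32 CPM in the denominator group. The authors' deposited table gives a log2 fold change of 6.01 (adjusted p = 0.0444), the highest fold change of the 87 genes but the largest adjusted p among the 81 called. Rpl34 itself stood at 9297 CPM in the numerator group and 1885 CPM in the denominator group, with 2.30 in the authors' deposited table. Summed, both genes had 9447 CPM in the numerator group and 1888 CPM in the denominator group, a log2 ratio of 2.32. Rps19bp1, which is no ribosomal protein, stood at 56.1 CPM in the numerator group and 54.1 CPM in the denominator group, and the authors' deposited table gives 0.05 (adjusted p = 0.996).

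The second comparison called no member. Of all genes 0.109% were called in it by the authors' deposited table, 0.0704% higher and 0.0391% lower, and 0 of the 87 ribosomal protein genes. The sources used here do not name the program behind that test. Rpl34-ps1 was the 1 member with an unadjusted p under 0.05, where 0.336% of all genes had one. The median log2 fold change was -0.09 over core Rpl genes and -0.11 over core Rps genes, against 0.00 over all genes and -0.03 over the 188 other genes with a mean over 8 log2 CPM. Fold changes below 0 were found in 43 of 46 core Rpl genes and in 26 of 31 core Rps genes, where 6341 of 12791 genes of the table were below 0. The smallest unadjusted p of a core member was 0.334, so none of these small differences was detectable singly.

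Values ran from -0.29 for Rpl34 to 0.29 for Rpl26 in the authors' deposited table. Rpl34 stood at 1479 CPM in the numerator group and 1809 CPM in the denominator group. Rpl26 stood at 24.1 CPM in the numerator group and 19.7 CPM in the denominator group. Among core Rps genes, Rps24 was lowest at -0.22 and Rps2, a protein of the messenger RNA entry site, highest at 0.25 in the authors' deposited table, with 608 CPM for Rps2 in the numerator group and 512 CPM in the denominator group. Rpl30 stood at 0.16 and Rps27 at 0.02 in the authors' deposited table, with neither called. The family summed to 22.5% of the numerator total and 23.8% of the denominator total. Macrophage markers summed to 68.3 CPM in the numerator group and 117 CPM in the denominator group. Of these markers 1 of 5 was called lower, where 0.0391% of all genes were.

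Rpl34-ps1 was the only departing member of the second comparison. It stood at 173 CPM in the numerator group and 2.14 CPM in the denominator group, and the authors' deposited table gives a log2 fold change of 6.33 (unadjusted p = 0.0061, adjusted p = 1). The numerator groups of both comparisons are thus high and the shared denominator group is low. With Rpl34 added the sums were 1652 CPM in the numerator group and 1811 CPM in the denominator group, a log2 ratio of -0.13. No value per library is given, so whether 1 library carries this level was not tested.

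Fold changes within the family varied with coding length. Over the core members that did not depart, Spearman's rho between fold change and coding length was -0.29 over 72 genes of the first comparison and 0.48 over 76 genes of the second one, as a description of genes that share their libraries. In the second comparison the 24 core genes with a coding length of up to 400 bases had a median log2 fold change of -0.16, the 31 genes over 400 and up to 600 bases -0.11, and the 21 genes over 600 bases -0.07. In the first comparison the medians were 2.13 over 22 genes, 2.04 over 30 genes and 2.01 over 20 genes in the same order. At the short end, Rpl38 had -0.25, Rps28 -0.22, Rps29 -0.20 and Rpl39 -0.23 in the second comparison of the authors' deposited table. Other short genes lay higher, as Rpl41, the shortest, had -0.11, Rps21 -0.04, Rps27 0.02 and Rpl30 0.16 in the authors' deposited table. At the long end, Rpl4 had 0.01 and Rpl3 -0.04 in the authors' deposited table, and none of these was called. Mean level moved too, with a rho of 0.12 for the first and -0.37 for the second comparison, and the part of level was not tested.

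**Figure D4:**
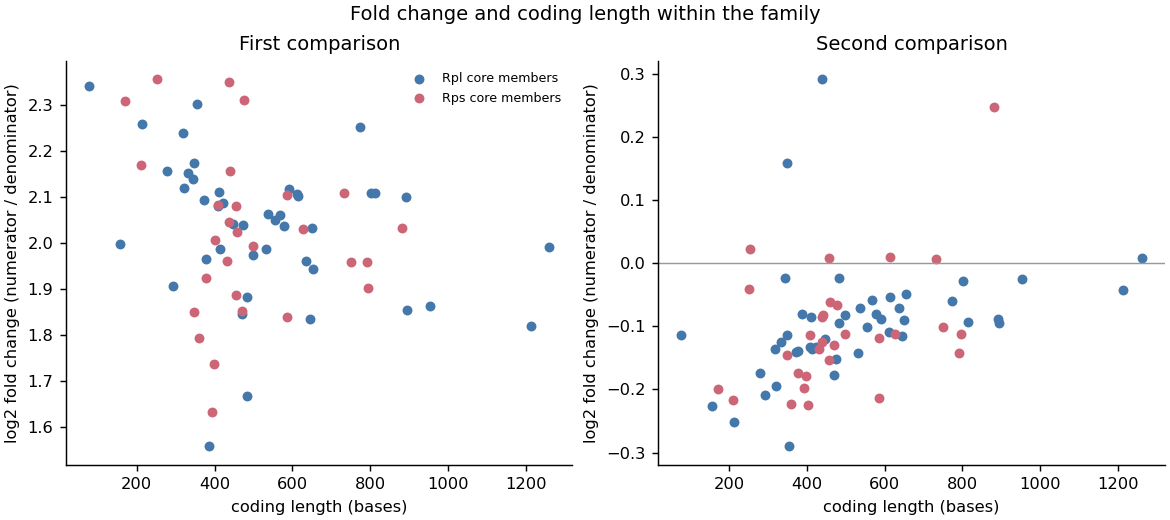
Log2 fold change against coding length in bases for core members that did not depart, Rpl and Rps in different colours, in both comparisons. In the second comparison the median of short genes is lowest, with medians of -0.16 up to 400 bases and -0.07 over 600 bases. In the first, genes up to 400 bases run from 1.56 to 2.36. Genes over 400 and up to 600 bases reach 2.35.

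Starts of transcription were compared for the TOP motif, which is known from this family. RefSeq promoters (GRCm38.p6) were found for 56 of 77 core members. An unbroken run of at least 5 C or T bases that covers the first transcribed base, on the gene's strand, was found at 20 of them (35.7%) and at 11.8% of the 27025 genes of that table. The median log2 fold change in the first comparison was 2.03 over the 20 genes with a run and 2.03 over the 36 without, and in the second -0.12 and -0.10. Runs a few bases from the listed start, as at Rps26, Rpl18 and Rps25, were not counted. The starts used in these cells are unknown, so the 36 genes need not lack the motif, and these medians do not test its part. Rps27, which departed, has such a run, as do Rpl7a, Rpl15 and Rps6, which did not, while Rps27l, which lay with the family, has none at either start in the table. The lines give 30 bases before and 20 bases from the RefSeq start on, with the run in capitals.
Rps27, chr3:90213629-90213678, minus strand: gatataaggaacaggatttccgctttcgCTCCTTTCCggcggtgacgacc
Rpl7a, chr2:26910777-26910826, plus strand: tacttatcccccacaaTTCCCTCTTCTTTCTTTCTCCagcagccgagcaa
Rpl15, chr14:18270967-18271016, minus strand: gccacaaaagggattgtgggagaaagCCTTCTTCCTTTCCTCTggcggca
Rps6, chr4:86857348-86857397, minus strand: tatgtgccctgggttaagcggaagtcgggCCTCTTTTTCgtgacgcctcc
Rps27l, chr9:66946056-66946105, plus strand: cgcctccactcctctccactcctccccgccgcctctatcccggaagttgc

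Many ribosomal protein genes carry small nucleolar RNAs in their introns, which guide the modification of ribosomal RNA. Of the small RNA genes that GENCODE nests in members on the same strand, 27 in 19 host genes were in the table, and 1 was called higher and 8 lower in the first comparison, by the authors' deposited table, with a median of -0.35 on the log2 scale, where 18.8% of all genes were called higher and 3.49% lower. In the second comparison 1 of the 27 was called, Snord15a, for which the authors' deposited table gives -3.18 and an adjusted p of 0.0049, where 0.109% of all genes were called and its host Rps3 had 0.01. All 19 hosts were above 0. Rpl13a, for example, had 2.11, and of the 4 small RNAs in its introns Snord34 at -13.48 and Snord35a at -8.64 were called lower in the authors' deposited table. Snord33 at -2.37 (adjusted p = 0.083) and Snord32a at -0.60 (adjusted p = 0.826) were not called in the authors' deposited table. Core members with a nested small RNA gene, departing ones left out, had a median of 1.99 (28 genes) and those without one 2.06 (44 genes).

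Genes of the ribosome outside the name rule had values like those of the family. Rpsa, Fau and Gnb2l1, which encodes the scaffold protein RACK1, were called higher, at 1.96, 2.05 and 2.34 in the authors' deposited table. Other messages known to carry a TOP motif were called higher in 16 of 17 cases, with a median of 1.88, where 18.8% of all genes were called higher and 91.8% of the other genes over 8 log2 CPM were called, with a median of 2.002. They were led by Eef2 at 2.03, Btf3 at 2.09 and Tpt1 at 2.02 in the authors' deposited table. In the second comparison 1 of the 17 was called, the elongation factor gene Eef1a1 at -16.12 in the authors' deposited table, while its value in the first was 1.80. By mean level Eef1a1 stood at 14.31 log2 CPM over the first comparison and 11.91 over the second. A fold change of -16.12 at that level places the numerator group of the second comparison near the limit of detection. Such a fold change depends on the fit, and how it arose was not tested.

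The lists of genes that make ribosomes and guide their RNA are described by the same counts. Of 13 core genes of small nucleolar RNA particles 8 were called higher, with a median of 0.79, led by Fbl at 1.995, Nhp2l1 at 2.08 and Nop10 at 1.75 in the authors' deposited table. Of 37 measured genes of large subunit assembly 9 were called higher and none lower, with a median of 0.23, led by Npm1 at 2.05, Nsa2 at 1.85 and Mrto4 at 1.69 in the authors' deposited table. For small subunit assembly 5 of 39 were higher and none lower, with a median of -0.12, led by Rrp7a at 1.62, Fcf1 at 1.56 and Dimt1 at 1.38 in the authors' deposited table. Of 14 genes of RNA polymerase I and its factors 2 were higher and none lower, with a median of -0.17. These were Polr1d at 1.45 and Twistnb at 0.80 in the authors' deposited table, where Polr1a, the largest subunit, had -0.88 without passing (adjusted p = 0.0661). These counts stand beside 18.8% called higher and 3.49% called lower over the whole table. At equal totals 1.49 is taken from every log2 fold change, also from the median of -0.13 over all genes. The medians of the particle, large subunit assembly, small subunit assembly and polymerase lists were then -0.70, -1.26, -1.62 and -1.67. Values below 0 on that scale thus do not by themselves place a list below the whole table.

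Of 26 S6 kinases and regulators of TOP messages 6 were higher and 1 lower, with a median of 0.03, where 18.8% of all genes were called higher and 3.49% lower. These counts, like those of the p53 list, lie near the rates of the whole table. Eif4e, the cap-binding protein, had 1.65, Mycn 1.89 and Eif4ebp1, an inhibitor of Eif4e that mTOR controls, 1.51 in the authors' deposited table, while Rps6ka3 was lower at -1.02. Myc, which drives ribosome production in many cells, had 0.30 without passing in the authors' deposited table (adjusted p = 0.563). Of 12 genes around the p53 response to faulty ribosomes 2 were higher and 1 lower. Bax had 1.07, Trp53 0.90 and Cdkn1a, a cell cycle inhibitor that p53 induces, -1.73 in the authors' deposited table (adjusted p = 0.0039), while Mdm2, which free Rpl5 and Rpl11 bind, had -0.09. In the second comparison 0.109% of all genes were called in the authors' deposited table. None of the genes of the assembly, polymerase, regulator and p53 lists was among them.

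**Figure D5:**
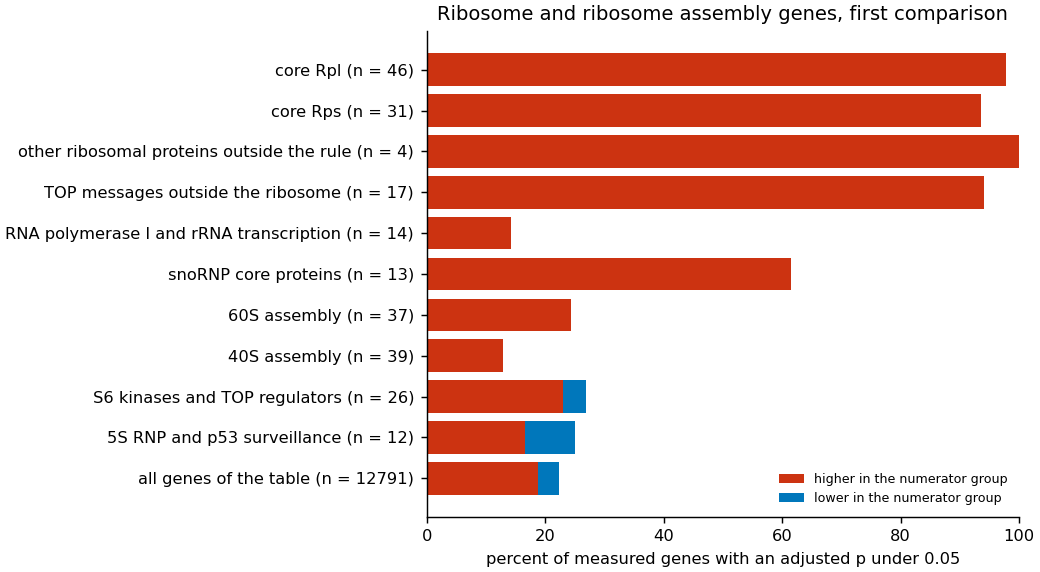
Percent of measured genes called higher (red) or lower (blue) in the numerator group of the first comparison at an adjusted p under 0.05, for core ribosomal protein genes and related lists, with all genes of the table at the bottom. Ribosomal proteins and TOP messages lie over 90%, and assembly and polymerase lists near the bar of all genes.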

How the data were processed

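Libraries were made from 0.1 ug of total RNA with an Illumina TruSeq kit, per the labels' protocols. Bowtie 0.12.2 and the build mm8 appear in the submitters' processing notes, without their roles. For the counting and testing programs, nothing is given in the sources used here. The log2 fold changes, mean log2 CPM values and p-values were deposited by the authors, and their adjusted p-values equal a Benjamini-Hochberg adjustment over all 12791 genes. The table has no value per library, so the planned model fits were not run.

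Group levels were solved from mean and fold change, with numerator weights of 0.48 and 0.59, which matched the denominator levels of both comparisons best over 9044 genes (median difference 0.0020 log2). With equal weights the difference was 0.0087, where the best other pairing of groups gave 0.0703. The method was checked on simulated data. Members, lists and rules were chosen with earlier results of these data known. Named are departing members (over 3 scaled MAD and at least 0.5 log2 from their subunit's core median), extremes of fold and level, paralogs, and the 3 smallest p-values of each list; extremes per kilobase, Rps21, Rps15, Rpl39, Rpl4, Rpl13a and its small RNAs, Snord15a, Eef1a1, Myc, Polr1a, Rps6ka3, Mdm2 and the printed promoters were chosen after their values were seen. Sequences, lengths and words of 50 bases come from RefSeq and GENCODE vM21 (GRCm38), joined by name. Per gene the shortest transcript with the coding length of its principal transcript was used. Some genes are not reported here. Computation used Python 3.11.15, pandas 2.3.3 and Biopython 1.88.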

Additional observations from a re-analysis of the deposited data

How the results depend on the processing

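The 81 calls higher in the first comparison were 78 to 81 under a threshold of 0.01, a fold minimum of 1 log2, a level minimum of 4 log2 CPM and Benjamini-Yekutieli adjustment, and no setting called a member lower or any member of the second comparison. The median log2 fold change of the first comparison depended on scale. For Rpl it was 2.18 less the median over all genes, 0.55 at equal totals and 0.064 less genes of like mean level, and for Rps 0.51 at equal totals and 0.018 less genes of like mean level; the cause was not tested. The 10 departing members became 6 after the fold change of genes of like level, an alternative chosen after seeing the data, was removed. Of these, 5 were shared by name (Rpl26, Rpl30, Rpl34-ps1, Rpl3l and Rps27) and Rpl21 was added. Rpl26 and Rps27, which lay below the family, were 1.53 and 0.71 above genes of like level, so their direction was reversed. Rpl21 was 1.43 above genes of its level. With a limit of 1 log2 8 members departed. At equal totals Rpl26 and Rpl7l1, both called higher, were at -0.03 and -0.49 on the log2 scale. Equal weights moved no median level by more than the members' spread. No paired analysis was possible because the deposited table holds no values of single libraries. For the same reason no library could be left out, and what depth limits is unknown.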
